A study of Mus musculus with 2 samples.

Results

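The genes described here run the passage of a cell from G1 into S phase, and comprise 5 cyclins, 2 cyclin-dependent kinases (CDKs) and 3 CDK inhibitors. They were the named genes Ccne1, Ccne2, Ccna2, Ccnd2, Ccnd3, Cdk2, Cdk4, Cdkn1a, Cdkn1b and Cdkn2c, found by the symbol of each array feature. All 10 were on the array, 9 with 1 feature and Cdkn1b with 2, among 16504 named genes and 22393 features in all. Thymocytes of null mice, which lack the gene under study, were compared with thymocytes of wild-type mice. The description of the samples names thymocytes and their source is labelled thymus, and neither age, sex, strain nor treatment is given in the sources used here. For each genotype, RNA of 3 mice was mixed in equal parts into 1 pool. Both pools were put together on each of 2 Agilent mouse oligonucleotide arrays. The null pool carried Cy5 on the first (the null-Cy5 array) and Cy3 on the second (the null-Cy3 array), with the wild-type pool in the other dye.

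Every value below is a difference, the log2 ratio of null over wild type, and no value is a level of RNA. The file does not state the direction. It is likely from how the first array was labelled and from the second column. That column writes every exact zero as -0, as a change of sign would leave. Read as already turned, the ratio is the mean of the arrays. In the 1030 genes with exactly 2 features, this mean had a correlation of 0.33 between features. Read as not yet turned, the ratio would be the difference of the arrays divided by 2, with a correlation of 0.04. With 1 pool per genotype, no spread between mice was measured and no test across samples was possible. Each SD is the technical spread between the 2 arrays (n = 2). A gene was called higher or lower where it differed at least 1.5-fold, 0.58 in log2, in the same direction on both arrays. Because the RNA came from a mixture of cells, a change in the share of a cell type and a change of RNA within a cell cannot be told apart.

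D cyclins pair with Cdk4 and its relative Cdk6 in G1, and the active kinase phosphorylates the retinoblastoma protein and its relatives, which releases E2F factors. E2F factors raise transcription of the E cyclins and of cyclin A2, which activate Cdk2 and carry the cell into and through S phase. Cdkn1a and Cdkn1b, of the Cip/Kip family, inhibit cyclin E and cyclin A kinases, while Cdkn2c, of the INK4 family, binds Cdk4 and Cdk6. In the thymus, divisions are concentrated in late double negative and early double positive cells, and most later double positive cells rest in G1.

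Among the 10 genes, Ccne2 was called higher in the null pool, at 1.94-fold, and no member was called lower. Over all 16504 genes, 0.412% were called higher and 1.11% lower. Both E cyclins, cyclin A2, both kinases and Cdkn2c lay above 0 on both arrays, 6 of 10 members against 25% of all genes. Ccnd2, Cdkn1a and Cdkn1b lay below 0 on both arrays, 3 of 10 members against 25% of all genes, and Ccnd3 had opposite signs. Here and below, all genes means every named gene, expressed or not, since expression could not be read from the ratios. The median over the 10 members was 0.21, with 0.27 on the null-Cy5 array and 0.09 on the null-Cy3 array. The median over all genes was 0.00093.

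**Figure D1:**
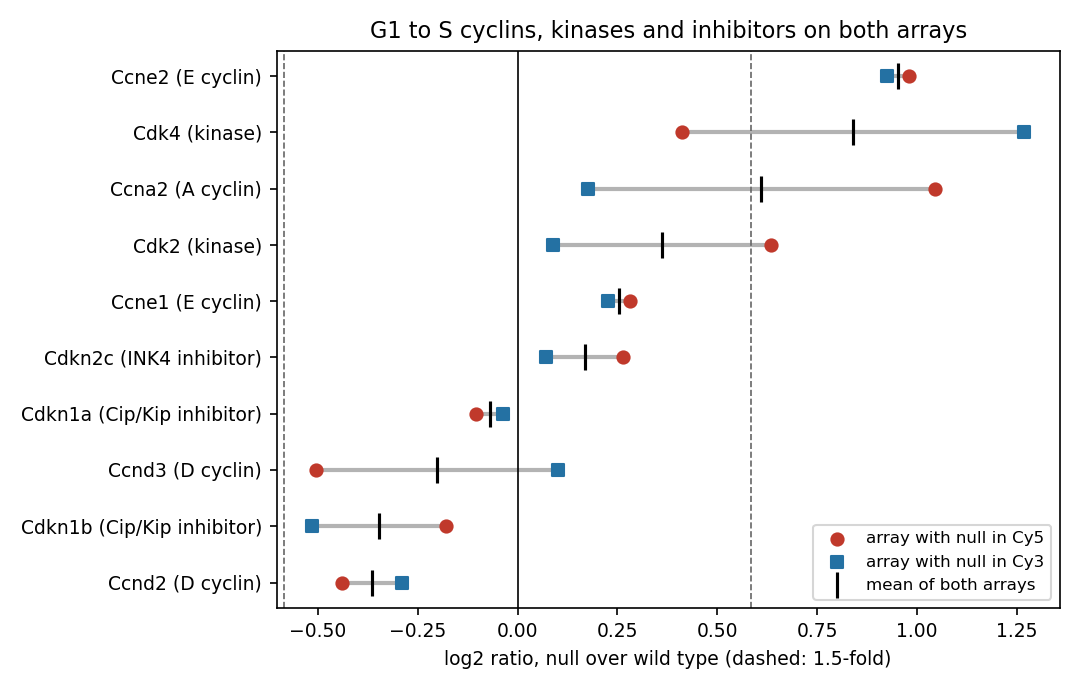
The log2 ratio of null over wild type (x axis) is plotted for each of the 10 genes (y axis) on the null-Cy5 array (circles) and the null-Cy3 array (squares), with a bar at their mean and dashed lines at 1.5-fold. Both points of Ccne2 lie beyond the line, at 0.98 and 0.93, while Cdk4, Ccna2 and Cdk2 each have a single point beyond it.

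Promoter windows show what sequence lies upstream of these genes. The RefSeq table of build GRCm38.p6 used here holds 10 windows for 7 of the 10 members, each 300 bases long, from 250 before to 50 after an annotated start. Ccne2, Ccna2 and Ccnd2 had no entry. Cdk4 and Cdk2 are shown because they are the 2 kinases among the members and because their windows held 4 E-boxes and the only E2F site found among the members. Both are given 5′ to 3′ on the gene's strand, for the 250 bases before the start, with capitals marking the E-box CACGTG in Cdk4 and the E2F site in Cdk2. Cdk4 lies on the plus strand (chr10:127063285-127063534) and Cdk2 on the minus strand (chr10:128705052-128705301).
Cdk4: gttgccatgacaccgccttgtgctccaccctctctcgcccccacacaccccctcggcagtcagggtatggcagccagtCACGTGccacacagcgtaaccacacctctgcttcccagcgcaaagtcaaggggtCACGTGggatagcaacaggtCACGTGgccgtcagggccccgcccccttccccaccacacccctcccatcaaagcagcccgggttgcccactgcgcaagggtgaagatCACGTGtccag
Cdk2: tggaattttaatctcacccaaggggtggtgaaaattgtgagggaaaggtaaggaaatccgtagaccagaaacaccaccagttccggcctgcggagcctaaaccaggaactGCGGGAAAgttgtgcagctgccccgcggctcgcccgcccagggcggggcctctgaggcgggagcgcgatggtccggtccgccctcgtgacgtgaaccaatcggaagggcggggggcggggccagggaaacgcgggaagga

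Exact matches were searched on both strands for 6 motifs. The E2F site was TTTCCCGC, TTTCGCGC, TTTGCCGC or TTTGGCGC. The CHR, an element of late cell cycle genes, was TTTGAA or TTCGAA. The others were the GC box GGGCGG, the CCAAT box CCAAT, the E-box CACGTG, which Myc and related factors bind, and a nuclear receptor element, TAGGTCA or TGGGTCA. No match of one motif overlapped a match of another in the member windows. An E2F site was found in the window of Cdk2 alone, beginning 140 bases before its start, and in 2.26% of all 32851 windows. Forms that differ by a base were not counted, so a window without a match may still hold a variant site. The Cdk4 window held 4 E-boxes, beginning 172, 118, 98 and 11 bases before its start. At least 1 E-box was found in 7.15% of all windows, and 4 or more in 8 windows, or 0.0244%; the count of 4 was set after the matches were seen. Cdkn2c held an E-box 34 bases after the start of 1 of its 2 windows, and a nuclear receptor element 180 bases before that start, a motif found in 6.45% of windows. GC boxes were found in 8 of the 10 member windows, over all 7 members, and in 35.7% of all windows. CCAAT boxes were found in 4 of the 10 member windows (1 each of Cdk2, Cdkn1b, Cdkn2c and Ccnd3) and in 37.4% of all windows, and no member held a CHR, which 19.2% of windows did. A match is a run of letters and was not tested as a bound site.

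**Figure D2:**
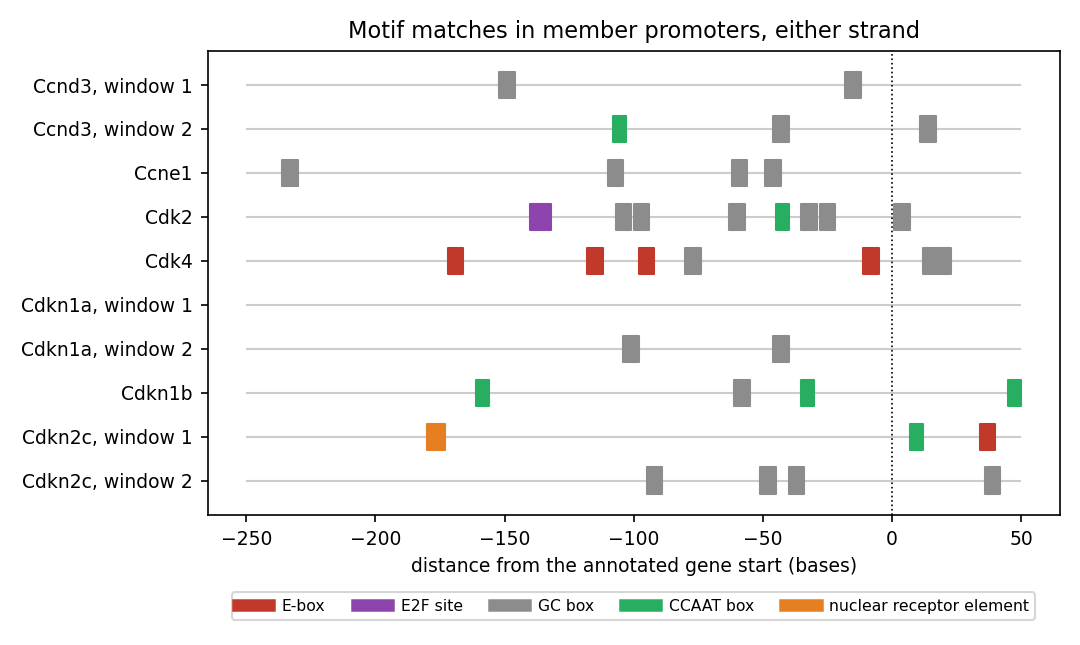
Motif matches are drawn by distance in bases from the annotated start (x axis, dotted line at the start) for the 10 windows of the 7 members in the table (y axis), each 250 bases before to 50 after the start, on either strand. Cdk4 carries 4 E-boxes before its start and Cdk2 the only exact match to an E2F site, while 1 of the 2 Cdkn1a windows has no match.

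Ccne2, which encodes cyclin E2, stood at 0.98 on the null-Cy5 array and at 0.93 on the null-Cy3 array. The arrays thus gave 1.97-fold and 1.90-fold, a mean of 0.95 (SD 0.04). It ranked 22 of 16504 genes from the highest mean. It was not called at 2-fold, nor with the second column read as not yet turned (0.028) or the deposited values taken as log2 (0.29). Ccne1, which encodes cyclin E1 and shares the role of cyclin E2 as an activator of Cdk2, stood at 0.28 and 0.23, a mean of 0.25 (SD 0.04). Its array values lay close together, at 1.19-fold in the mean, below the size of a call. The ratio of Ccne2 exceeded that of Ccne1 by 0.70 on each array, or 1.62-fold. The spread between arrays was small in both genes, smaller than in Ccne1 for 18.2% of all genes and smaller than in Ccne2 for 17.7%.

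Ccna2, which encodes the cyclin A2 that acts with Cdk2 in S phase and with Cdk1 later, stood at 1.04 and 0.18. Its mean was 0.61 (SD 0.61), so the spread between arrays was as large as the value. The array with null in Cy5 alone gave 2.06-fold and the null-Cy3 array alone 1.13-fold. Its spread exceeded that of 97.2% of all genes. Ccna2 was above 0 on both arrays and past 1.5-fold on 1 of them, and was not called.

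Both kinase genes had wide gaps between arrays, in opposite directions. Cdk4, the kinase partner of D cyclins, stood at 0.41 on the null-Cy5 array and 1.27 on the null-Cy3 array, a mean of 0.84 (SD 0.61), or 1.79-fold. By its mean it ranked 33 of 16504 genes, and by the rule it was not called, because the first array gave 1.33-fold. With the second column read as not yet turned, its mean would be -0.43, the opposite direction. Cdk2, the partner of E and A cyclins, stood at 0.63 and 0.09, a mean of 0.36 (SD 0.38). Its spread exceeded that of 90.2% of genes and that of Cdk4 exceeded 97.1%. Cdk4 minus Cdk2 was -0.22 on the null-Cy5 array and 1.18 on the other, so the order of the kinases differed between the arrays.

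Past 1.5-fold higher on exactly 1 array were 3 of 10 members (Ccna2, Cdk2 and Cdk4), against 4.40% of all genes. On the null-Cy5 array, 3 members were past it (Ccne2, Ccna2 and Cdk2), against 2.31% of genes. On the null-Cy3 array, 2 members were past it (Ccne2 and Cdk4), against 2.92% of genes. No member was past 1.5-fold lower on either array, where 2.47% and 2.68% of all genes were, shares at which none of 10 is no result about the members.

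**Figure D3:**
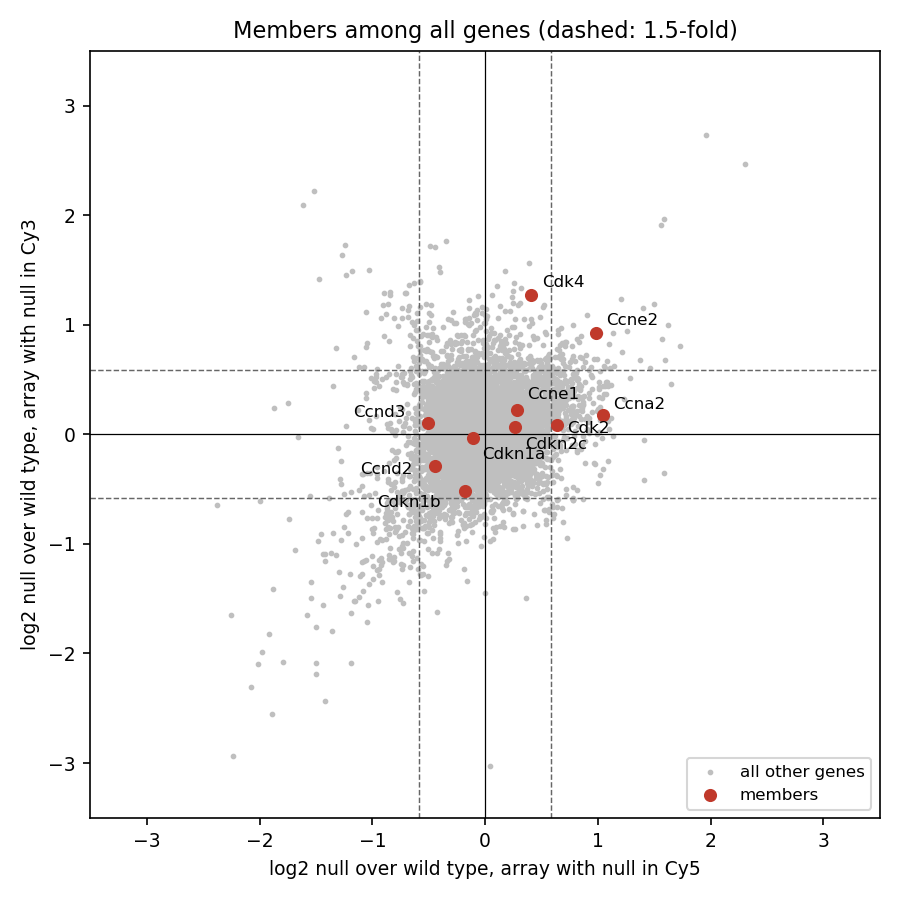
Each point is a gene, placed by its log2 ratio of null over wild type on the null-Cy5 array (x axis) and on the null-Cy3 array (y axis), with dashed lines at 1.5-fold and the 10 members in red. Ccne2 alone of the members lies in the upper right corner beyond both lines, and Cdk4, Ccna2 and Cdk2 lie beyond 1 line each.

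The D cyclins, which link growth and receptor signals to Cdk4 and Cdk6, gave no call. Ccnd2, whose product is a D cyclin of early thymocytes and other lymphocytes, stood at -0.44 and -0.29, a mean of -0.36 (SD 0.11). It was thus 1.29-fold lower in the mean, with both arrays on the same side, and had the lowest mean of the 10 members. Ccnd3, whose product is required for the expansion of immature thymocytes in mice, stood at -0.50 on the null-Cy5 array and at 0.10 on the null-Cy3 array. Its mean of -0.20 (SD 0.43) was smaller than its spread, and its direction was not determined. Ccnd3 minus Ccnd2 was -0.06 and 0.39, so these cyclins did not differ by more than the spread between arrays in the difference (mean 0.16, SD 0.32).

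Of the inhibitors, Cdkn1b and Cdkn1a lay below 0 and Cdkn2c above it, all within 1.5-fold. Cdkn1b stood at -0.18 on the null-Cy5 array and -0.51 on the null-Cy3 array, a mean of -0.35 (SD 0.24), or 1.27-fold lower. Its value is the average of 2 features designed from different sequence records. The feature of one record gave -0.30 and -0.16, and the feature of the other gave -0.06 and -0.87. All 4 values were below 0, while the sizes differed between features by more on the second array than on the first. In genes with exactly 2 features, the median gap between the feature means was 0.12; for Cdkn1b the feature means were -0.23 and -0.47.

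Cdkn1a, which many stress signals induce and which also inhibits Cdk2, stood at -0.10 and -0.04, a mean of -0.07 (SD 0.05). Cdkn2c stood at 0.26 and 0.07, a mean of 0.17 (SD 0.14). The inhibitors, like every other member, had means closer to 0 than Ccne2. Ccne2 minus Cdkn1b, a pair from the top and near the bottom of the member means, was 1.16 and 1.44 on the 2 arrays (mean 1.30, SD 0.20).

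From the highest to the lowest mean, the members ran Ccne2, Cdk4, Ccna2, Cdk2, Ccne1, Cdkn2c, Cdkn1a, Ccnd3, Cdkn1b and Ccnd2. Of the 9 pairs of neighbours in this order, 8 had array values that overlapped and a gap smaller than the larger of their SDs. The exception was Cdkn2c against Cdkn1a, with a gap of 0.24 and an SD of 0.14. By these ranges, the order within the upper 6 and within the lower 4 was not resolved neighbour by neighbour. Members farther apart, such as Ccne2 and Ccne1, were separate on both arrays. The ranges do not pair the genes by array. Within each array, Ccna2 exceeded Cdk2 (1.04 against 0.63, and 0.18 against 0.09). Ccne1 also exceeded Cdkn2c on each (0.28 against 0.26, and 0.23 against 0.07). The rest of the 8 pairs changed order between the arrays. The order also rests on the inferred direction of the second column. Read as not yet turned, that column would put Ccna2 (0.43), Cdk2 (0.27) and Cdkn1b (0.17) highest, Ccne2 at 0.028, and Ccnd3 (-0.30) and Cdk4 (-0.43) lowest.

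Of 125 measured genes on 7 lists of the pathway and of cell division, 6 (4.80%) were called higher and 3 (2.40%) lower, against 0.412% and 1.11% of all genes. Of 29 other measured cyclins and CDKs, none was called, 8 lay above and 9 below 0 on both arrays, close to the 25% of all genes on either side, and the median was -0.02. The values farthest from 0, picked after they were seen, were those of Cdk1, the mitotic kinase, at 0.52 and 1.16, and of Ccng2, a cyclin of resting cells, at -0.54 and -0.84. The other INK4 and Cip/Kip genes lay near 0. Cdkn1c had a mean of -0.13 (SD 0.07), Cdkn2d of -0.06 (SD 0.09), Cdkn2a of -0.05 (SD 0.27) and Cdkn2b of 0.03 (SD 0.06), with none called.

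A list of 16 measured genes joined pocket proteins, the retinoblastoma family that holds E2F factors inactive, with E2F factors, their partners, and Lin9, Lin37, Lin52 and Mybl2, which form complexes with pocket proteins or E2F factors at cell cycle genes. Its median was 0.28, and would be 0.0065 with the second column read as not yet turned. None was called, 10 lay above 0 on both arrays and 1 below, against 25% of all genes on each side, and the exception was Rbl2, a pocket protein of resting cells, at -0.98 and -0.54. Its mean of -0.76 (SD 0.31) was the farthest from 0 in the list. E2f2 stood at 0.58 and 0.52 (mean 0.55, SD 0.05), just inside the size of a call on both arrays. Rbl1, a pocket protein that is itself an E2F target, had a mean of 0.50 (SD 0.40), and E2f1, a transcriptional activator, of 0.48 (SD 0.26).

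A list of CDK phosphatases, kinases, CDK subunits and ubiquitin ligase parts, with Mnat1 among them, held 18 measured genes. Of these, 13 lay above 0 on both arrays and none below, against 25% of all genes on each side, with a median of 0.24. With the second column read as not yet turned, this median would be -0.08. Cks1b, a small CDK subunit that helps the Skp2 ligase to bind Cdkn1b, was called higher at 0.72 and 0.84 (mean 0.78, SD 0.09), while Skp2 itself stood at 0.09 and 0.05. Cks2, its paralog, had a mean of 0.61 with a wide spread (SD 0.68). Pkmyt1, an inhibitory kinase of Cdk1, had a mean of 0.60 (SD 0.36), and Cdc25b, a phosphatase that activates CDKs, of 0.48 (SD 0.26).

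Among 20 upstream regulators of G1 genes, Myc was called higher and Klf2 lower, against 0.412% and 1.11% of all genes. Of this list, 4 lay above 0 on both arrays and 10 below, against 25% of all genes on each side, with a median of -0.08. Myc, a growth factor-induced transcription factor that binds E-boxes, stood at 1.26 and 0.94 (mean 1.10, SD 0.23). Klf2, a transcription factor of resting T cells, stood at -0.81 and -1.16 (mean -0.98, SD 0.25). The 18 measured stress and DNA damage response genes were chosen as p53 pathway genes. Many of them are induced by the same signals as Cdkn1a. Of these 18, 13 lay below 0 on both arrays and 1 above, against 25% of all genes on each side. Their median was -0.21, and would be -0.016 with the second column read as not yet turned. Ccng1 is on this list and among the other cyclins and CDKs. Zmat3, an RNA-binding protein (mean -0.85, SD 0.30), and Fas, a death receptor (mean -0.75, SD 0.15), were called lower, against 1.11% of all genes. Cdkn1a was not called.

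Cell division markers lay above 0 beside Ccne2. All 23 measured markers, against 25% of all genes, lay above 0 on both arrays, with a median of 0.58 (0.67 on the null-Cy5 array and 0.48 on the other). With the second column read as not yet turned, this median would be 0.10. Like the other lists, the markers were chosen with earlier results of these data known. Of these markers, 4 were called higher, against 0.412% of all genes. They were Dut, which removes dUTP (0.97, SD 0.06), and Bub1, a spindle checkpoint kinase (0.88, SD 0.37). The others were the helicase subunits Mcm6 (0.87, SD 0.03) and Mcm3 (0.75, SD 0.04). Cdk1 and Ccnb2 are on this list and among the other cyclins and CDKs. Ccne2, at 0.95, lay within the range of the markers, 0.21 to 0.97, and Ccne1, at 0.25, near its lower end. The part that a change in the share of dividing cells has in the ratios of the members was not tested.

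**Figure D4:**
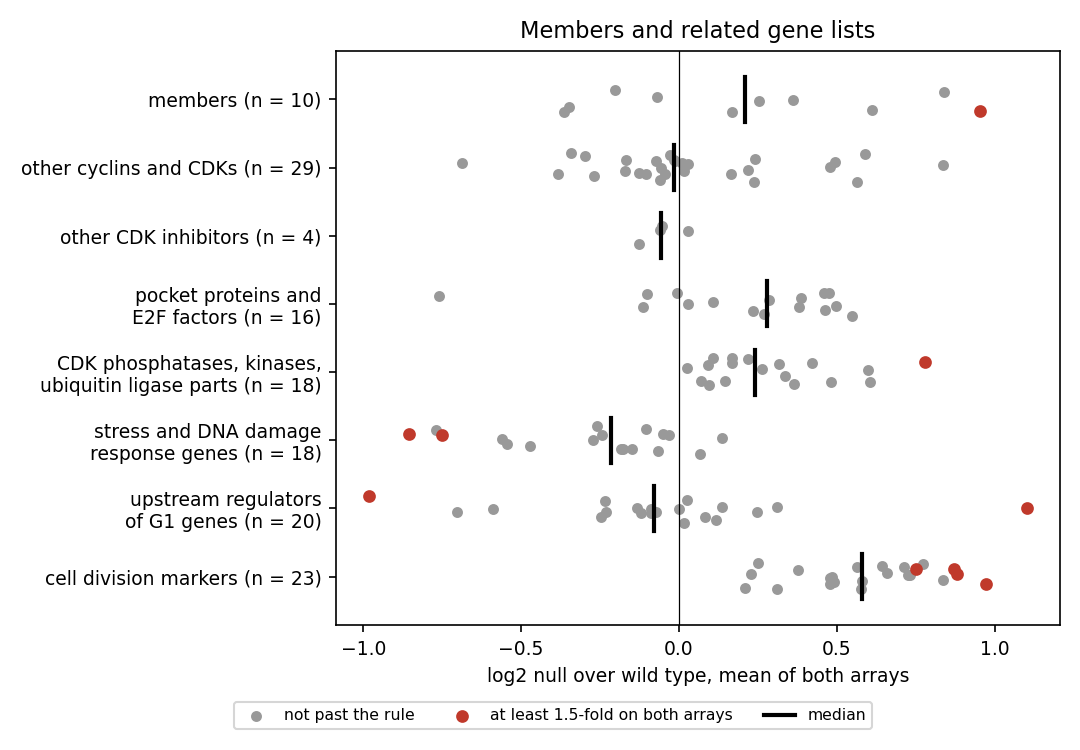
Mean log2 ratios of null over wild type (x axis) are plotted for the members and 7 related gene lists (y axis, with the number of measured genes), with a black bar at each median and red for genes called at 1.5-fold on both arrays. The medians range from -0.21 for the stress and DNA damage response genes to 0.58 for the cell division markers, with the members at 0.21.

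Other cell types had markers called in both directions. Of the measured markers, 2 of 7 for B cells, 3 of 8 for macrophages and dendritic cells, 2 of 8 for thymic epithelium and 1 of 9 for fibroblasts and endothelium were called lower and none higher, against 1.11% and 0.412% of all genes. Those called were Cd79a and Jchain for B cells, and Ctss, Cd74 and H2-Eb1 for macrophages and dendritic cells. They were Epcam and Krt5 for thymic epithelium, and Postn for fibroblasts and endothelium. In the same order, the highest means of these lists were -0.04, 0.07, 0.06 and 0.12. Above 0 on both arrays lay 0, 1, 0 and 3 of their markers, and below it 7, 6, 5 and 5. For granulocytes, 4 of 8 were called higher, with a range of 0.0040 to 1.34. Of 7 markers of NK and cytotoxic cells, 1 was higher and 1 lower, and none of 5 erythroid markers was called. Among 12 thymocyte markers, Rag1 and Cd4 were called lower, and the list had a median of -0.14. The file holds ratios and no intensities, so whether a marker or a member was expressed at all could not be read from it, and the part of these cells in the ratios of the members was not tested.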

How the data were processed

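The deposited values are log ratios of the 2 dyes, taken as log10, the usual base of the software's ratio (an inference from the values and the software). The submitters' processing notes name Agilent Feature Extraction 7.1, run with default settings, per the series' design text. Each array received 750 ng of labelled cRNA per dye for 17 h. Values were converted to log2. The second column was read as already turned to null over wild type: its 82 exact zeros are written -0, and the 80 of the first are written 0. No centring was added, since the medians were -0.00141 on the null-Cy5 array and 0.00112 on the null-Cy3 array.

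Of 22393 features, 18218 had 1 gene symbol, 16 several and 4159 none. For 18175, the gene ID gave a current symbol in RefSeq's GRCm38.p6 annotation. The build behind the array is not known here, so that annotation gave names only, and the promoter windows carry their own coordinates. Features of a gene were averaged. Members, lists and motifs were chosen with earlier results of these data known. All members are named, with every called gene of the pathway lists and up to 4 of the largest in the pocket protein, inhibitor and ubiquitin ligase lists. The size rule was run on simulated arrays with changes of 2-fold or more and noise from the spread between the 2 arrays. Changes below 2-fold, as the mean of every member was, were not simulated, nor were differences between mice. The number of arrays limits precision. The targeted gene is not reported here. Python 3.11.15, numpy 2.4.6, pandas 2.3.3 and matplotlib 3.10.9 were used.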

Additional observations from a re-analysis of the deposited data

How the results depend on the processing

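No paired analysis was possible because each genotype had 1 pool and no result comes from a test. The median of the members (0.21) came to 0.028 with the second column read as not yet turned, and to 0.063 with the deposited values taken as log2. The count of members called (1) was 0 under each of these readings and at 2-fold on both arrays, 3 on the null-Cy5 array alone, 2 on the null-Cy3 array alone and 2 at a lower threshold of 0.32 in log2. Of the 125 pathway genes, 9 were called, against 22 on the null-Cy5 array alone, 30 on the null-Cy3 array alone, 36 at the lower threshold and 0 under both other readings and at 2-fold. Over all 16504 genes the count of 251 moved likewise, to 788, 924 and 857 under the first 3 of these settings, 72 with the second column not yet turned, 6 as log2 and 50 at 2-fold. With the second column not yet turned, Ccne2 would stand at 0.028, Cdk4 at -0.43 and Cdkn1b at 0.17. Taken as log2, it would stand at 0.29. Centring, the largest feature and the median over features moved no level of the 10 members by as much as its SD. A limit of 0.3 on the difference of the arrays divided by 2 left 7 members, without Ccnd3, Ccna2 and Cdk4. With only the bases before the start, the E-box and the CCAAT box of Cdkn2c were lost, leaving 1 and 3 members with these motifs, and the member with an E2F site stayed at 1. The arrays limit precision, and signal over background is unknown.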

Other observations

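The motifs were also set against the ratios of all genes, a comparison chosen after the data were seen and described without a test. Of the 13223 measured genes with a promoter window, 55 were called higher and 140 lower, with a median of 0.0026. The 501 genes with an E2F site had a median of 0.05 (0.05 on the null-Cy5 array and 0.06 on the null-Cy3 array), and 8 of them were called higher and 2 lower. The 1358 genes with an E-box had a median of 0.02, with 9 called higher and 18 lower. The 890 genes with a nuclear receptor element had a median of -0.00013, with 4 called higher and 17 lower. Genes with a CHR (2440), GC box (7458) or CCAAT box (5598) had medians of 0.0061, 0.00082 and 0.0062, with 17, 38 and 25 called higher and 32, 74 and 68 lower. Genes with a motif are not independent replicates, and several motifs can lie in 1 window.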
